A study of Mus musculus with 2 samples.

Results

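The interleukin-1 (IL-1) family was examined in RNA from 2 cultured mouse lung squamous cell carcinoma (SCC) lines. The 10 members are 6 secreted ligands (Il33, Il1a, Il1b, Il1rn, Il18 and Il1f6) and 4 receptor chains (Il1r1, Il1r2, Il1rl1 and Il1rap). They were taken as every probe set whose gene symbol is, or includes, one of these names, which gave 18 of the 45101 probe sets in the table and 10 of its 20679 genes. None of the 18 names a further gene. The family was chosen from results of this same comparison, so every value of a member is given as a description, with no test.

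The lines, titled S1 and S2, were both sorted from a single parental line, KALLU, which had been grown out of lung SCCs of KA/KA mice. Those mice carry a kinase-dead Ikkα knock-in and the mice of the study were on an FVB background, so both lines share the mutation and neither is a normal lung control. S1 is read here as KALLU+ (sorted as Sca1 high and CD24 negative) and S2 as KALLU- (Sca1 low and CD24 positive), because in the series text S1 has the high Sca1 level and the tumorigenic phenotype. Both were grown untreated in the same serum-containing medium, as sorted lines in culture and not within a tumour. Whether cells of other types remained in them was not tested. There is 1 sample per line, and the comparison asks how gene expression differed between the more and the less tumorigenic line. The authors deposited 1 number for each probe set: a linear fold change, S1 over S2, carrying a minus sign where S1 was the lower. It is given below on the log2 scale, so that -1 and 1 mark 2-fold lower and 2-fold higher. The table has no column of signals, detection calls or spread, so no value has an error, brightness over background is unknown, and it cannot be said whether a gene was detected in either line. The value of a gene is the median over its probe sets. For scale, 79 probe sets for genes of olfactory or vomeronasal receptors, taken as silent in both lines after their values had been seen, lay between -0.55 and 0.38 on the log2 scale.

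The sorting markers do not agree on the direction of the comparison. All 3 probe sets of Cd24a were lower in S1, with signed fold changes from -62.5 to -39.7, as the sort would have it. Sca1 itself is encoded by Ly6a, and its 1 probe set went against the label at -5.95. The proteins of 5 further genes were compared between these lines by immunoblot in the study, which reported all 5 as higher in KALLU+ cells. From its array the paper also lists Sox2, c-Myc, Twist1 and UBCH10, the protein of Ube2c, among the genes raised in KALLU+ cells. For TNFR1, the protein of Tnfrsf1a, it also reports a higher level by flow cytometry. At the Tnfrsf1a promoter it reports more H3K27ac, a histone mark of active chromatin, in KALLU+ cells. The transcripts of the 5, named here after their values were seen, had no common sign. On the log2 scale Sox2, a squamous lineage transcription factor, was at 7.27, the transcription factors Twist1 and Myc were at 1.14 and 0.86, and Ube2c, a ubiquitin-conjugating enzyme, and Tnfrsf1a, a TNF receptor, were at -0.07 and -1.16. The lines are therefore called the line labelled KALLU+ and the line labelled KALLU-. The sign of S1 over S2 is given by the table itself, and only the reading of S1 as KALLU+ rests on the titles and the series text. The 24 probe sets of bacterial poly-A RNAs, added to the sample before labelling, had a median log2 value of -0.45; centring on them instead would raise every log2 value by that amount.

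IL-1 family cytokines signal through paired receptor chains that carry an intracellular TIR domain. IL-1α and IL-1β bind IL-1R1, IL-33 binds ST2 (Il1rl1), and both complexes need the shared accessory chain IL-1RAcP (Il1rap) to recruit MyD88 and IRAK kinases and to activate NF-κB. Several members hold the system back. The antagonist encoded by Il1rn occupies IL-1R1 without signalling, and IL-1R2 is a decoy without the signalling domain. IL-33 and IL-1α are stored in epithelial and stromal cells and act as alarmins when cells are damaged, whereas IL-1β is made mostly by activated myeloid cells.

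By the gene median, 3 of the 10 members were at least 2-fold lower in the line labelled KALLU+ (Il33, Il1rn and Il1r1), against 5.08% of all genes, and 0 were at least 2-fold higher, against 4.69%. By single probe sets, 5 of 18 were at least 2-fold lower, against 4.72% of all probe sets, and 0 were at least 2-fold higher, against 6.73%. The median over the 10 members was -0.24 on the log2 scale, beside -0.04 over all genes; centred on the poly-A controls it was 0.21. The medians of 6 members lay inside the range of the olfactory receptor probe sets, those of Il33, Il1rn and Il1r1 below it and that of Il1rl1 above it. Of all single probe sets, 11.6% lay below that range and 17.7% above it, and the shares of all gene medians were not taken. In all, 7 medians were below 0 and 3 above. Since the family was proposed with this comparison in view, nothing is read from these counts.

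The promoters of the 3 members with a gene median at least 2-fold lower are shown. For Il1r1 that median rests on 1 low probe set of 2. They are RefSeq windows of GRCm38.p6, from 250 bases before to 50 bases after an annotated start, written 5′ to 3′ on the gene's strand. Both Il33 windows are given, since Il33 has 2 annotated starts, with the first of the 3 Il1rn windows and the second of the 2 Il1r1 windows. Capitals mark matches, on either strand, to a fixed set of motifs. The TATA motif was searched as TATAAA. The AP-1 motif was searched as TGANTCA, in which N stands for any base. The STAT motif was searched as TTCNNNGAA. The IRF and NF-κB motifs were searched as their usual consensus sites.
Il33, first start (chr19:29924863-29925162, + strand): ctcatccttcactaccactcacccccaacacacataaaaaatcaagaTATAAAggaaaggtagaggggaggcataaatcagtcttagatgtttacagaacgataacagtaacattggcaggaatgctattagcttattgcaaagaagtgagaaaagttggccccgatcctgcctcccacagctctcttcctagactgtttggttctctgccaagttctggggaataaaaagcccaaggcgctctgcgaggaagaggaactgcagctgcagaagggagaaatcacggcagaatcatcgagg
Il33, second start (chr19:29945540-29945839, + strand): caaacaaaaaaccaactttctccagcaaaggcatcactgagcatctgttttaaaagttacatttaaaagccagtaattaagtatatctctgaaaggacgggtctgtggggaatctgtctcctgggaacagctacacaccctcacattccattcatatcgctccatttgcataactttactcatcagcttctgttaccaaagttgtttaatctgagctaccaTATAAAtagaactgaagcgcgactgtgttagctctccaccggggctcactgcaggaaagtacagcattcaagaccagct
Il1rn, first start (chr2:24336610-24336909, + strand): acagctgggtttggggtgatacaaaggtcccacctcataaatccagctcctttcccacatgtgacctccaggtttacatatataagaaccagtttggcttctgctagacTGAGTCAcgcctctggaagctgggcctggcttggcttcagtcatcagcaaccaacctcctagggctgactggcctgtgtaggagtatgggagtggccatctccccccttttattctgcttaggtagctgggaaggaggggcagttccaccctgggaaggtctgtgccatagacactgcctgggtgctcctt
Il1r1, second start (chr1:40266336-40266635, + strand): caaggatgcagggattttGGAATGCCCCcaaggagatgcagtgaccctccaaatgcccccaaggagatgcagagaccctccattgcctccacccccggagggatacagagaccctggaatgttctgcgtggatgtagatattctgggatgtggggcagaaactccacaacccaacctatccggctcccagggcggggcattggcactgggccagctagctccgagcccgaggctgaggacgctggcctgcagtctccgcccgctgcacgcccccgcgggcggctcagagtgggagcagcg
In the Il33 windows the capitals are TATA matches, which begin 203 bases before the first start and 29 bases before the second. A TATA match is in 13.6% of all 32851 windows. The Il1rn window holds an AP-1 match 141 bases before the start, as do 7.81% of windows somewhere, and the Il1r1 window an NF-κB match on the other strand 232 bases before the start, as do 4.51%. The first Il1r1 window and the second Il1rn window hold no match, and the third Il1rn window a TATA match on the other strand. Of the members not shown, Il1a has an AP-1 match, Il1r2 a STAT match (8.3% of windows) and Il1rap an IRF match (3.44%). Il1a and Il1b have TATA matches 32 and 31 bases before their starts, Il18 has one on the other strand, and neither window of Il1rl1 holds any motif. No matches overlap. These are letters in a window and not measured binding. Windows were found for 9 of the 10 members, Il1f6 being the exception, and the deposited table does not tell which start a probe set reads.

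Il33, which encodes the ST2 ligand, had by far the lowest value in the family. Its 1 probe set had a signed fold change of -166, a log2 value of -7.38. Only 6 of the 45101 probe sets were lower, and among genes it was the fourth lowest, between Efemp1 at -7.80, which encodes an extracellular matrix fibulin, and Ms4a4d at -7.30, a membrane protein of the MS4A family. The next on each side were Plac8 at -8.65 and Gzme at -6.64. Il33 lay 6.08 log2 units below the next member, and centring on the poly-A controls left it at -6.93. The value rests on 1 probe set, with no second one to set beside it. With no signal given, a ratio of this size cannot be divided into how high Il33 was in the line labelled KALLU- and how close to background it was in the other.

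The other agonist ligands had log2 values near 0. Il1a, the other epithelial alarmin, had a log2 value of -0.33 at its 1 probe set. Il1b was at 0.09 and Il18, a cytokine that promotes interferon-γ production, at -0.14, each at 1 probe set. Il1f6, which encodes IL-36α, a ligand of squamous epithelia, was at 0.28. All 4 lay inside the range of the olfactory receptor probe sets, and whether any was detected in either line is unknown. The 4 also have no common sign, and on the poly-A controls Il1a and Il18 turn from below 0 to 0.11 and 0.30.

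Il1rn, the IL-1 receptor antagonist, was lower in the line labelled KALLU+ wherever it was read: 3 probe sets gave fold changes of -5.98, -2.45 and -2.05, or -2.58, -1.29 and -1.04 on the log2 scale. It is the only member with more than 1 probe set at which every probe set was at least 2-fold lower. Its median of -1.29 was 2.45-fold lower, at percentile 3.38 of all genes, and on the poly-A controls it was -0.85 and no longer 2-fold.

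Among the receptors, the 2 probe sets of Il1r1, the signalling receptor for IL-1α and IL-1β, went apart. The first had a signed fold change of -5.91 (log2 -2.56) and the second 1.01 (log2 0.02), a distance of 2.58 log2 units. Their median of -1.27 describes neither, and it differs from that of Il1rn by 0.02, far less than the SD of 0.49 that probe sets for a shared gene have among themselves, pooled over 9609 genes. On the poly-A controls it was -0.83. The table does not say which transcripts each probe set reads. Il1r2, the decoy, was at -0.38 at its 1 probe set, inside the olfactory receptor range, and turns to 0.07 on the poly-A controls.

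Il1rl1, which encodes ST2, was the highest member. It was read at fold changes of 1.63 and 1.84 (log2 0.71 and 0.88), both above the olfactory receptor range, as are 17.7% of all probe sets, and both under 2-fold. The line with the lower Il33 value thus had the higher value of its receptor, by a median of 0.80 on the log2 scale, and of 1.24 on the poly-A controls. Il1rap, the shared accessory chain, was read by 5 probe sets with log2 values of -0.81, -0.04, -0.02, 0.06 and 0.32. The median was -0.02 (0.42 on the poly-A controls), and only the lowest lay outside the olfactory receptor range.

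In the order of medians, Il33 stood alone, followed by Il1rn with Il1r1, then Il1r2, Il1a, Il18, Il1rap, Il1b and Il1f6, and last Il1rl1. From Il1r2 to Il1f6 each neighbour differed from the next by less than that pooled SD of 0.49, so the order of neighbours there is not settled. The ends of the stretch, Il1r2 at -0.38 and Il1f6 at 0.28, lie further apart than that SD. The SD is a spread among probe sets and not an error between samples. Counted over the family, 10 of 18 probe sets lay inside the olfactory receptor range, 6 below it (11.6% of all probe sets lie there) and 2 above it.

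**Figure D1:**
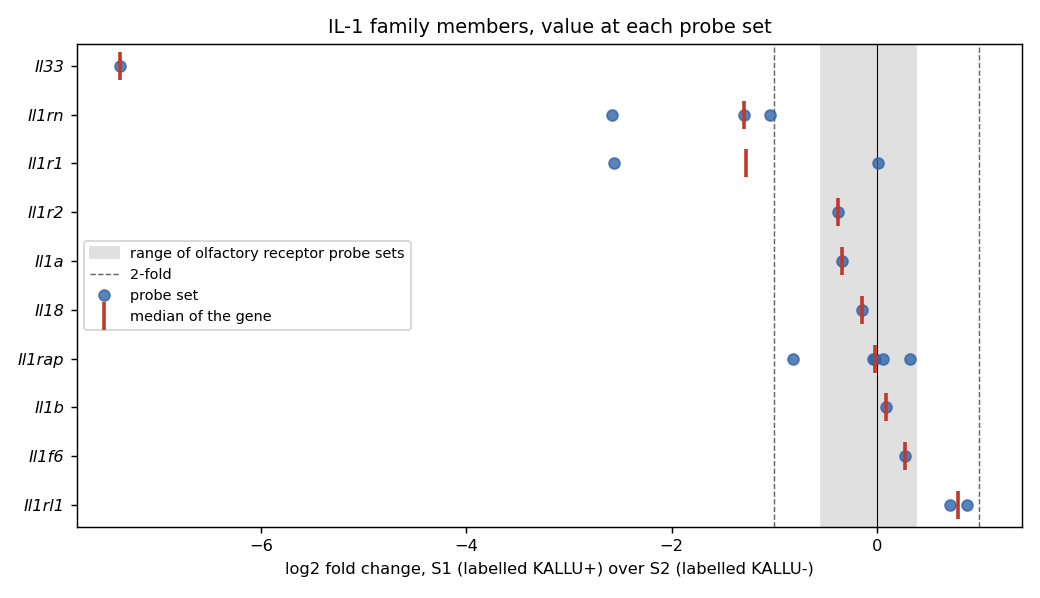
Log2 fold change of S1 (labelled KALLU+) over S2 (labelled KALLU-) on the horizontal axis at each of the 18 probe sets (blue points) of the 10 members, in rows ordered by the gene median (red bar). The grey band is the range of the 79 olfactory and vomeronasal receptor probe sets and the dashed lines mark 2-fold; Il33 lies at -7.38, the pair of Il1r1 probe sets lie apart, and both of Il1rl1 lie above the band. There is 1 sample per line and no error bar.

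The remaining genes of the family were read as a list of 11, all of them on the array. Among them 0 were at least 2-fold higher (beside 4.69% of all genes) and 1 was lower (9.09%, beside 5.08%). That gene was Il1rl2, the receptor for the IL-36 cytokines, with a median of -1.54 over 2 probe sets at -2.87 and -0.21, a distance like that of Il1r1. The IL-36 ligands other than Il1f6 stayed near 0, with Il1f8 at -0.19 and Il1f9 at -0.10, and so did the IL-36 receptor antagonist Il1f5 at -0.20 and Il1f10 at -0.12. Of the IL-18 system, the receptor chain Il18r1 was at 0.00, its partner Il18rap at 0.42 and the soluble inhibitor Il18bp at 0.06. The inhibitory receptor Sigirr was at -0.23, and Il1rapl1 and Il1rapl2, accessory-like proteins known from neurons, were at -0.01 and 0.07.

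Most of these receptors lie in 1 row on chromosome 1, and the table allows the row to be read in gene order. Il1r2, Il1r1, Il1rl2, Il1rl1, Il18r1 and Il18rap had log2 medians of -0.38, -1.27, -1.54, 0.80, 0.00 and 0.42. The pair in the middle, Il1r1 and Il1rl2, was low at 1 probe set each, while the next gene, Il1rl1, was high at both. Upstream of the row, Map4k4 was at -0.87 and Rfx8 at -0.15; downstream, Slc9a4 was at 0.00 and Slc9a2 at -0.12. Around Il33, on chromosome 19, the nearest genes read were Ranbp6 at 0.42 and Trpd52l3 at -0.01, so the low value was not shared by its neighbours. Around Il1rn, on chromosome 2, Il1f10 was at -0.12 and Psd4 at 0.04, followed by Pax8 at -0.05 and Cacna1b at 0.12. Il1a and Il1b lie side by side elsewhere on chromosome 2. On the Il1a side were Ckap2l at -0.01, Slc20a1 at 0.17 and Chchd5 at -0.59. On the Il1b side the next gene, Sirpa, an inhibitory receptor that binds CD47, was at -1.34 with all 3 probe sets at least 2-fold lower (-2.16 to -1.26), while Pdyn was at 0.09 and Stk35 at -0.39. None of the 6 genes read beside Il18 or the 6 beside Il1rap had a median past 2-fold; the lowest were Sdhd at -0.36 and Mb21d2 at -0.66. Only gene order was used, from RefSeq's table for GRCm38.p6, because the deposited table names no genome build.

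**Figure D2:**
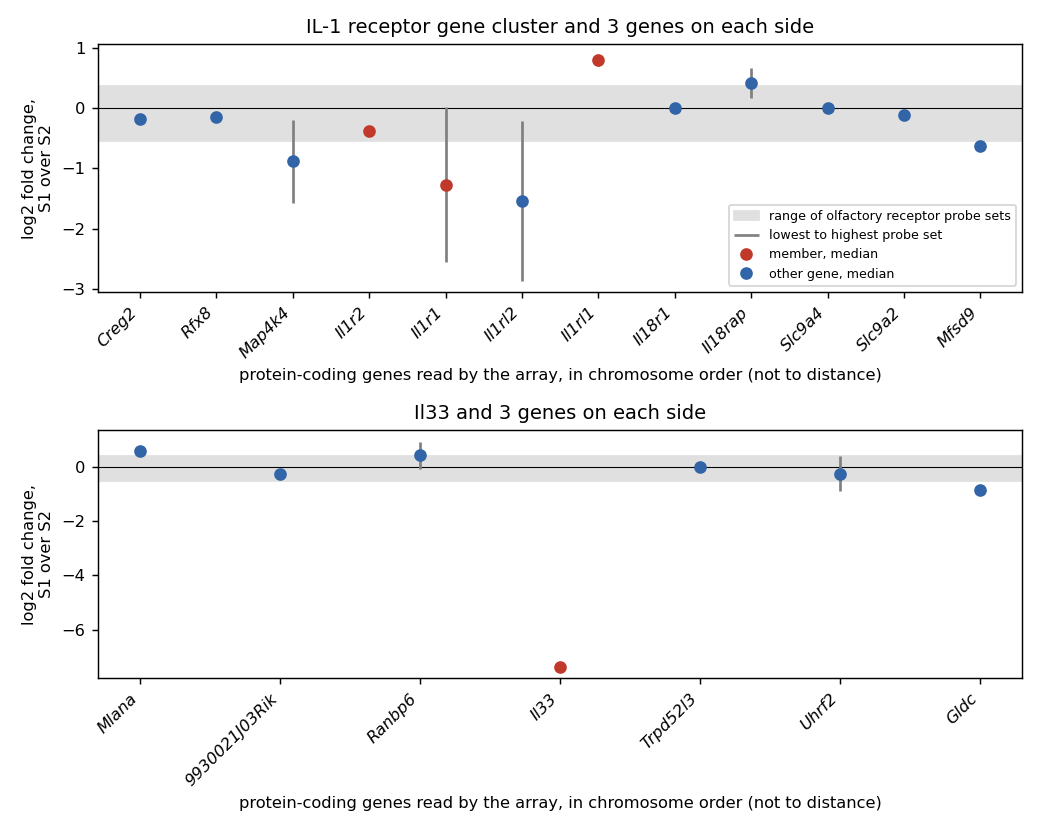
Log2 fold change of S1 over S2 on the vertical axis for the genes of the IL-1 receptor row on chromosome 1 (top) and for Il33 (bottom), each with 3 genes on each side in chromosome order. Points are gene medians (red for members), grey lines run from the lowest to the highest probe set, and the band is the olfactory receptor range; Il1r1 and Il1rl2 have long lines, and Il33 at -7.38 stands alone among its neighbours.

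Genes that process or release these cytokines were read for 19 of the 21 on the list. At least 2-fold lower were 3 (15.8%, beside 5.08% of all genes), and 0 were higher (beside 4.69%). Casp4, the inflammatory caspase that responds to intracellular lipopolysaccharide, was at -3.77 at its 1 probe set. Txnip, a thioredoxin inhibitor that binds the NLRP3 inflammasome, was at -2.43 over 2 probe sets, and Prtn3, a neutrophil protease that can cleave IL-33, at -1.13. Casp1, which cleaves the IL-1β and IL-18 precursors, was at -0.33 and Nlrp3 at 0.05, both named after their values were seen.

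Of the signalling proteins next to the receptors, 18 of 20 were read. At least 2-fold lower were 3 (16.7%, beside 5.08% of all genes) and 1 was higher (5.56%, beside 4.69%). Irak3, the inhibitory IRAK also called IRAK-M, was at -2.72 with probe sets at -3.59 and -1.86. Tifa, a TRAF6-binding adaptor, was at -1.47. Peli2, a ubiquitin ligase that acts on IRAKs, had a median of -3.15, with its highest probe set at -0.71, and it is named after its values were seen to complete the count. Tab3, a subunit of the TAK1 complex, was the 1 higher gene, at 1.13. The core components Myd88, Irak1, Irak4 and Traf6, also named after their values were seen, had medians of -0.65, 0.14, 0.07 and -0.28.

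Of the lists read, the genes known to be induced by IL-1 had the largest share past 2-fold. All 34 were read, and 18 were at least 2-fold lower in the line labelled KALLU+ and 3 at least 2-fold higher, that is 52.9% lower beside 5.08% of all genes and 8.82% higher beside 4.69%. The list median was -1.15 on the log2 scale. The 6 lowest of those at which every probe set was past 2-fold were Lcn2, an iron-sequestering acute-phase protein, at -4.81, the chemokine genes Ccl7 at -4.34 and Cxcl5 at -4.21, Il6 at -3.32, the adhesion molecule Icam1 at -3.21 and the hyaluronan-binding Tnfaip6 at -2.83. The higher genes were Areg, an EGF receptor ligand, at 2.29, the prostaglandin synthase Ptgs2 at 1.30 over 2 probe sets and the collagenase Mmp13 at 1.27. Not every NF-κB feedback gene was among the low ones, with Nfkbia at 0.17 and Tnfaip3 at 0.33, which are named after their values were seen. Many of these genes also respond to TNF and to other inducers of NF-κB, the list was written with earlier results of these data known, and no set test was made.

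Marker lists give the setting of these values. Of all genes, 5.08% were at least 2-fold lower and 4.69% at least 2-fold higher. Of 22 leukocyte markers read, 20 lay inside the olfactory receptor range, Ptprc, the pan-leukocyte CD45, at -0.05 among them. So did 12 of 15 epithelial, 7 of 8 endothelial and 7 of 16 mesenchymal and fibroblast markers. Of all probe sets, 11.6% lie below that range and 17.7% above it. Those shares are of single probe sets, whereas each marker is a gene median, so the units differ. At least 2-fold lower were 2 leukocyte markers (9.09%), S100a8 at -5.69 and Cd14 at -1.11. Of 15 epithelial markers 1 was at least 2-fold lower (Perp at -1.17) and 0 higher, and Krt5 and Trp63, which define squamous and basal epithelium, were at -0.07 and -0.09. Of 16 mesenchymal and fibroblast markers 4 were at least 2-fold lower, Cdh11 at -5.44, Fap at -3.00, Col3a1 at -2.23 and Pdgfrb at -1.16, and 0 were higher. The list median was -0.43, with 11 genes below 0 and 5 above, and the highest was Cdh2, which encodes N-cadherin, at 0.80, followed by the matrix proteoglycan Dcn at 0.42. Vim, the mesenchymal intermediate filament, was at 0.09. These 3 genes are named after their values were seen. Il33 and Il1r1 are also expressed by fibroblasts, and the part of the mesenchymal genes in their values was not tested. Of 8 endothelial markers 0 were past 2-fold in either direction. In bulk RNA, fewer cells of a type and less RNA per cell cannot be told apart.

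**Figure D3:**
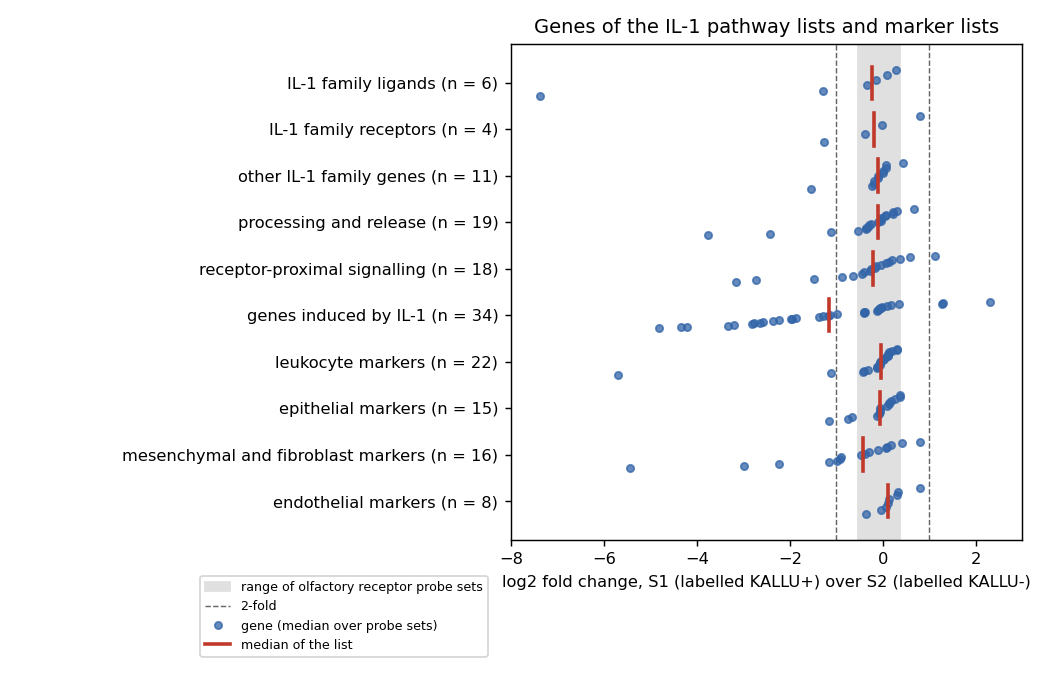
Log2 fold change of S1 (labelled KALLU+) over S2 (labelled KALLU-) on the horizontal axis for each gene (blue point, median over its probe sets) of the IL-1 pathway and marker lists, with the list median as a red bar, the number of genes read in brackets, the olfactory receptor range as a band and 2-fold as dashed lines. Of the genes induced by IL-1, 18 of 34 lie left of the 2-fold line, while most genes of the leukocyte, epithelial and endothelial lists lie in or near the band.

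How far each member depends on the reading of the table is shown next. Il33 stayed between -7.38 and -6.93, whereas Il1rn ran from -2.58 at its most extreme probe set to -0.85 on the poly-A controls, and Il1r1 from -2.56 to -0.83. Both stayed below 0 under the 4 other readings tried. None of those readings takes the second Il1r1 probe set alone, which was at 0.02, so the sign of Il1r1 was not put to a test by them. Il1rl1 stayed above 0 and reached 2-fold on the poly-A controls only, at 1.24.

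**Figure D4:**
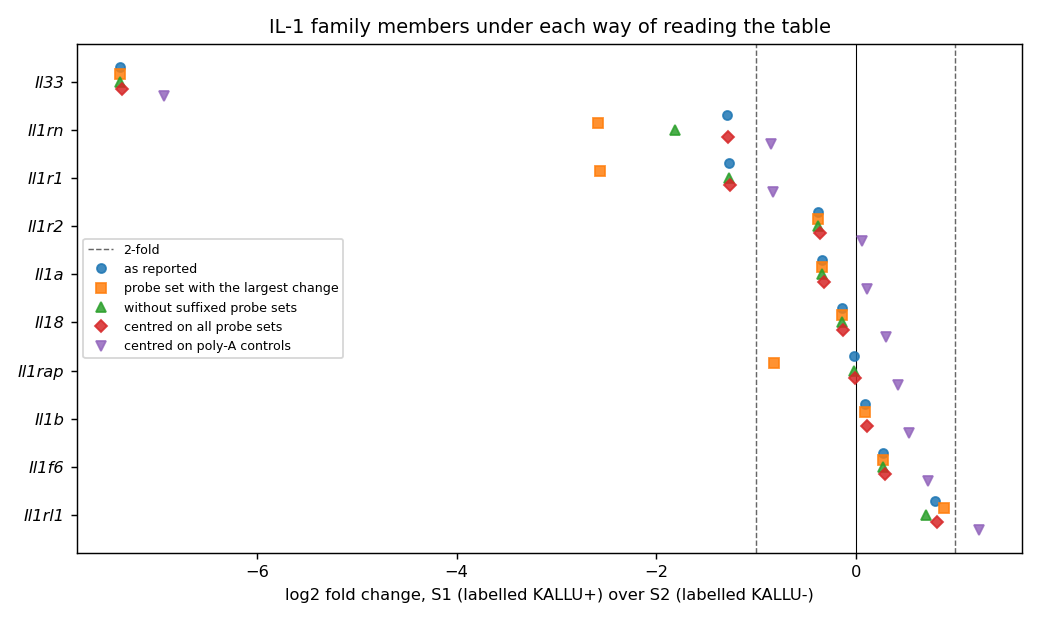
Log2 fold change of S1 over S2 on the horizontal axis for each of the 10 members as reported (circle) and under 4 other readings: the most extreme probe set (square), without suffixed probe sets (upward triangle), centred on all probe sets (diamond) and centred on the poly-A controls (downward triangle). Dashed lines mark 2-fold; the poly-A setting moves every member to the right by the same amount, which takes Il1rn and Il1r1 inside 2-fold and Il1rl1 past it.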

How the data were processed

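Biotin-labelled RNA from the 2 lines, 1 sample each per the labels, was read on an Affymetrix mouse expression array. The sources differ on the software: the methods name Partek Genomics Suite and the submitters' processing notes name MAS5. Version, background correction, normalization and the number of arrays behind each value are not given in the sources used here. The authors deposited 1 column, read here as a score: the signed linear fold change of S1 over S2 per probe set. It is the authors' own comparison and the sole column of values, so it was used as the measurement. No value lies strictly between -1 and 1. Precision is unknown, and neither a test nor an SD between samples could be had.

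Folds were converted to log2, keeping the sign. A gene is the median over probe sets that name it alone; of the table's probe sets, 5797 name no gene and 1280 several. The threshold was 2-fold. The members and lists were chosen with earlier results of these data known. Named were all members, the other family genes, genes next to members and, of each list, up to 6 genes in each direction with every probe set past 2-fold. Of 180 list entries 172 matched as written, 1 by a RefSeq synonym and 7 not. Alternatives were folds of 1.5 and 4, the most extreme probe set, leaving out suffixed probe sets (_a_at, _s_at, _x_at, which mark probe sets that can match several transcripts or sequences), and centring on all probe sets or on poly-A controls. Python 3.11.15, numpy 2.4.6, pandas 2.3.3 and matplotlib 3.10.9 were used, and the steps were tested on simulated data. The simulated probe sets of a gene were less spread than those of these data. That test therefore checks the code and not how reliable a 2-fold call is here.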

Additional observations from a re-analysis of the deposited data

How the results depend on the processing

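Of the 10 members, 3 were at least 2-fold lower and 0 higher. At 1.5-fold 3 were lower and 1 higher, at 4-fold 1 was lower, and on the poly-A controls 1 was lower and 1 higher. Of the probe sets, 5 were lower and 0 higher at 2-fold. At 1.5-fold 2 were higher, at 4-fold 3 were lower, and on the poly-A controls 3 were lower and 2 higher. Of the genes induced by IL-1, 18 were lower and 3 higher at 2-fold and 11 and 1 at 4-fold. A looser or stricter fold and a common shift move counts by construction. Shares over all genes and all probe sets were taken only at 2-fold, on the values as deposited. The counts at 1.5-fold, at 4-fold and on the poly-A controls therefore have no such share beside them, and nothing is read from them. The members' median of -0.24 became 0.21 on the poly-A controls, so its sign depends on the centring. Of 39 member values under another setting, 4 moved by more than 0.49, the pooled SD among probe sets for a shared gene. These were Il1rn at -2.58 (most extreme probe set) and -1.81 (without suffixed probe sets), and Il1r1 at -2.56 and Il1rap at -0.81 (most extreme probe sets). In all, 0 values past 2-fold changed sign. Both centrings shift every member by less than 0.49, so no value could move, nor one past 2-fold reverse, under them. A member with 1 probe set also keeps its value at the most extreme probe set. Most of the 39 values could therefore not move, and the count of 4 is no measure of stability. Of 84 counts of the other lists, 62 stayed within 1.5 times. Many of these were counts of 0 that stayed at 0, and centring on all probe sets barely shifts any value. The 62 are therefore no measure of stability either. Including probe sets that name several genes changes no member, since none does. Signal over background is unknown, so the smallest difference that could be seen is unknown too. No paired analysis was possible because the table holds no values per sample and the labels give 1 sample per line.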

Other observations

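Related systems outside the family were read from lists written after the values of the members had been seen, and are given as values. Of 13 Toll-like receptors, which share the TIR domain and MyD88 with the IL-1 receptors, 11 were read and 0 were past 2-fold in either direction, with medians from -0.84 for Tlr6 to 0.24 for Tlr5. Read next were 9 genes of the type 2 cytokines and of the epithelial cytokines that act beside IL-33. In the line labelled KALLU+, 0 were at least 2-fold higher (beside 4.69% of all genes) and 2 were lower (22.2%, beside 5.08%). They were Tslp, the epithelial alarmin thymic stromal lymphopoietin, at -1.61 and Csf2, which encodes GM-CSF, at -1.13. The other epithelial cytokine of that group, Il25, was at 0.03, and the lymphocyte products Il4, Il5 and Il13 were at -0.29, -0.06 and -0.08.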
